A study of Mus musculus with 6 samples.

Results

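The genes described here are 29 genes by which liver turns sugar and acetate into fatty acids, elongates and desaturates them, and joins them to glycerol as triglyceride. They were taken by name, and all 29 were among the 17119 gene symbols of the count table and among the 12706 genes that passed the filter on low counts. RNA was sequenced from 6 samples of unfractionated mouse liver, 3 per group, after 12 weeks on a high-fat high-cholesterol diet (HFHCD), which is used to bring on steatohepatitis. The wild-type livers carried the genotype Clec4f-iCre;Cebpb+/+ and came from littermates, and the heterozygous livers carried Clec4f-iCre;Cebpbfl/+. All animals therefore carried iCre under the promoter of Clec4f, a gene of Kupffer cells, which are macrophages that reside in the liver. The deletion of 1 copy of Cebpb, a transcription factor gene, was thus directed at Kupffer cells, while the lipogenic programme is known chiefly from hepatocytes. In the genotype labels of replicates 2 and 3 the driver bears other numbers, while the series design gives Clec4f for all. The labels do not give sex, age, litter, time of day or feeding state per sample, and they do not tie each sample to its own animal, so the spread behind each p-value is that among these samples and may be technical.

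In fatty acid synthesis, citrate leaves the mitochondrion and is split to acetyl-CoA, which acetyl-CoA carboxylase turns to malonyl-CoA and fatty acid synthase builds into palmitate with reducing power from NADPH. Desaturases and elongases then reshape the chain, and acyltransferases, lipins and diacylglycerol acyltransferases add it to glycerol. In liver the programme is switched on after feeding by SREBP-1c, the product of Srebf1, under insulin, and by ChREBP, the product of Mlxipl, under sugar.

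Both regulators are themselves genes of the list, and their upstream sequences are shown with that of Fasn, the enzyme gene that both are known to drive. The windows are the 250 bases before RefSeq starts, on build GRCm38.p6, and the counts were made on GRCm39, so no other coordinates are given. The table of RefSeq windows used here matched 23 of the 29 genes (33 windows), all but Scd1, Scd2, Elovl3, Fads1, Dgat1 and Dgat2. Capitals mark any of 4 short motifs on either strand: the E-box CACGTG, the SREBP site TCACNCCAC, the NF-Y box CCAAT and the Sp1 box GGGCGG. Marked motifs may touch or overlap, as the NF-Y boxes on both strands do in Fasn.
Srebf1, chr11:60220628-60220877, minus strand: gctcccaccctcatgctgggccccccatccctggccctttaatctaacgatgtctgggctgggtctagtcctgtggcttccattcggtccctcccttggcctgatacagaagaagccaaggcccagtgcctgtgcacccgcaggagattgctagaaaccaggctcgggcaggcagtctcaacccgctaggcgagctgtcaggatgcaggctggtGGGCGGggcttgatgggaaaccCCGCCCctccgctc
Srebf1, chr11:60210472-60210721, minus strand: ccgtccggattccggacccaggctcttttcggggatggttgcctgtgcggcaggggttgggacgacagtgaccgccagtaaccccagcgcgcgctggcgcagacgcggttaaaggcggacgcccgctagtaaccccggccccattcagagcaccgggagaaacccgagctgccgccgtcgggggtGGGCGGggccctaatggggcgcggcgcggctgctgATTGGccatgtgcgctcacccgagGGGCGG
Mlxipl, chr5:135089640-135089889, plus strand: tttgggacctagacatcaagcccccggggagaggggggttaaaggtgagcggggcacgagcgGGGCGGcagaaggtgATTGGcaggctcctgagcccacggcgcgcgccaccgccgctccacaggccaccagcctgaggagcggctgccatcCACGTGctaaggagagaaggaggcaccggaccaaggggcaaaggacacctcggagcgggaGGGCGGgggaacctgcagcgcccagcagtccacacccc
Mlxipl, chr5:135106641-135106890, plus strand: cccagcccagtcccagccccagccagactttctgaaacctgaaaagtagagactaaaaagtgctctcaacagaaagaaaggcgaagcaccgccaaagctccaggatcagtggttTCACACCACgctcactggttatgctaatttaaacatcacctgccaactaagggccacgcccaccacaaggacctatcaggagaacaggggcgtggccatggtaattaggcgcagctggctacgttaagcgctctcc
Fasn, chr11:120824548-120824797, minus strand: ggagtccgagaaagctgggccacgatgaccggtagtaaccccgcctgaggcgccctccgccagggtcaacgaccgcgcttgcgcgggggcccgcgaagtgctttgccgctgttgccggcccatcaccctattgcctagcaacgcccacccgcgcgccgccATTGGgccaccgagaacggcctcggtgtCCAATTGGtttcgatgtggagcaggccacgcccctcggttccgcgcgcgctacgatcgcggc

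The first Srebf1 window held 2 Sp1 boxes, and the second held 2 Sp1 boxes and 1 NF-Y box. A further Srebf1 start, not printed, had 1 NF-Y box. The upstream Mlxipl window had 1 E-box, 1 NF-Y box and 2 Sp1 boxes, and the other Mlxipl window held the SREBP site found in 1 of the 33 windows of the listed genes. The Fasn window had 3 NF-Y boxes. Among all 32851 windows of this length, 6.02% held the E-box, 1.05% the SREBP site, 33.8% the NF-Y box and 32.7% the Sp1 box. The windows of the listed genes held them in 5, 1, 15 and 17 cases of 33. The counts are per gene and do not tell which start was used, and a motif match is a description, not a bound site.

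Libraries held between 16895322 and 17750755 reads. Reads of the 29 genes made up 1.38% to 2.36% of a library, and Scd1 alone 0.748% to 1.62%. Levels are in CPM, read counts scaled to a common library total after TMM scaling. Fold changes are heterozygous over wild-type from edgeR's quasi-likelihood test, with p-values adjusted by Benjamini-Hochberg over all genes tested and called under 0.05. Cebpb itself lay at 308 to 506 CPM in wild-type and 204 to 498 CPM in heterozygous livers, which checks the labels only weakly because other liver cells express it. The hepatocyte markers Alb, Apoa1, Ttr, Serpina1a, Tat and Cps1 were all present at 1745 CPM or more in every library, and 0 of the 6 were called.

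Of the 29 lipogenic genes, 0 were called in edgeR, against 74 of all 12706 genes (0.582%), of which 0.0236% were called higher and 0.559% lower. Directions were mixed: 13 genes had a positive and 16 a negative log2 fold change, with a median of -0.03 beside 0.0048 over all genes tested, of which 51% were positive. An unadjusted p under 0.05 was reached by 7 of the 29 (24.1%), beside 13.2% of all genes. Of these, Srebf1, Mlxipl, Elovl2 and Elovl3 had higher means and Thrsp, G6pdx and Pgd lower means in heterozygous livers, where all genes gave 4.2% higher and 9% lower. Libraries of the groups did not overlap for 6 of the 29 genes, 3 in each direction, beside 18.4% of all genes tested (7.05% higher and 11.3% lower). DESeq2 called 3 of the 29, Thrsp, G6pdx and Elovl3, beside 528 of the 16677 genes it fitted, many more than the 74 called in edgeR.

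**Figure D1:**
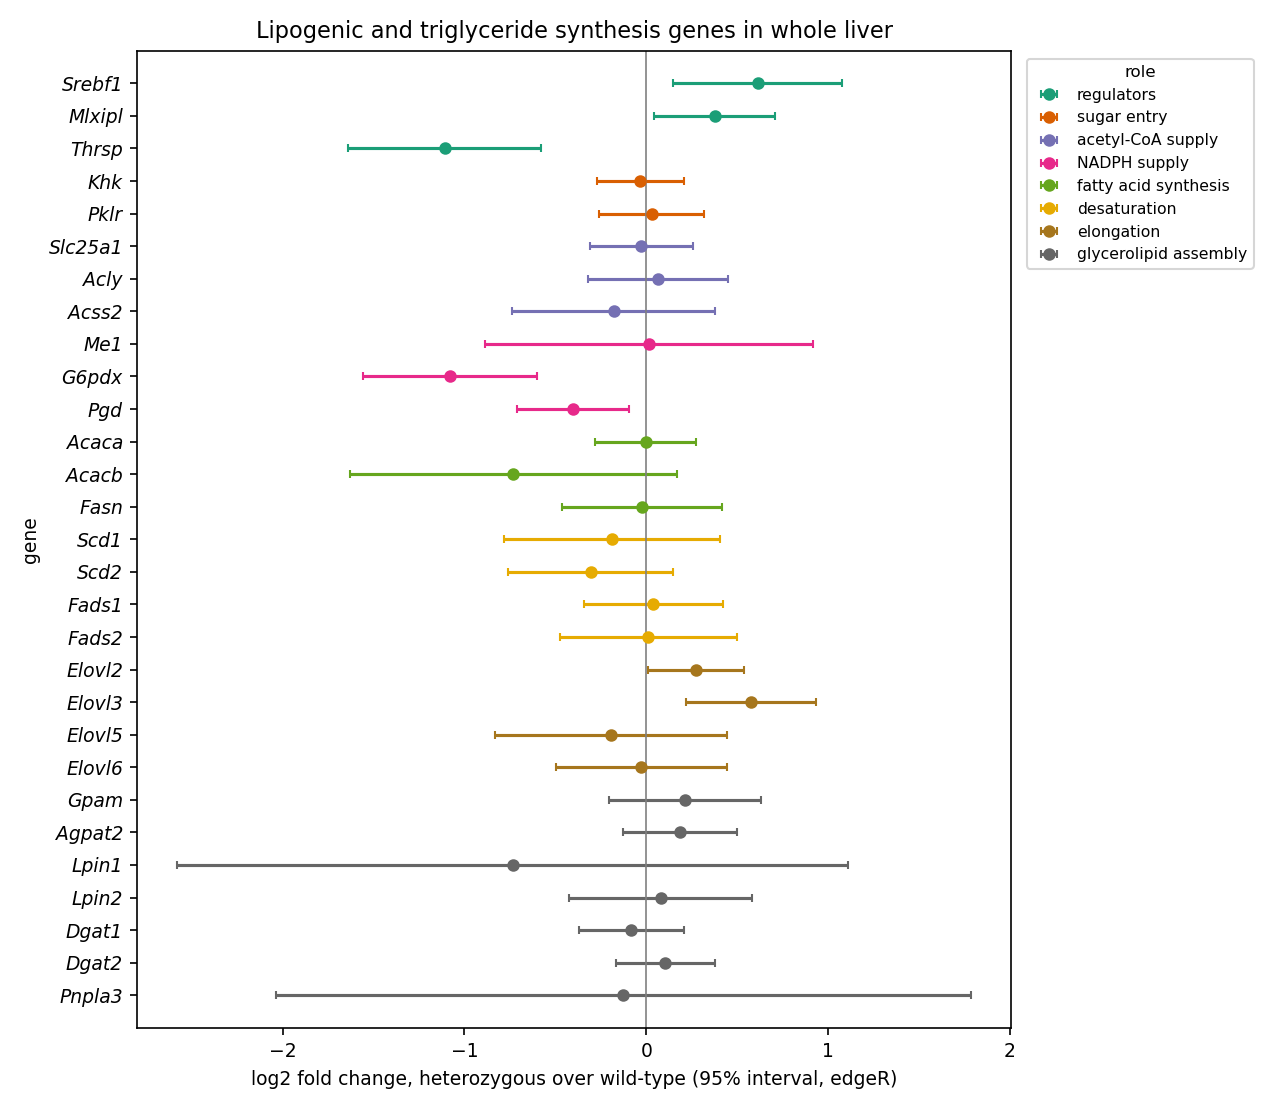
Log2 fold change of each of the 29 genes, heterozygous over wild-type liver, with its 95% interval from edgeR (x axis), ordered and coloured by role (y axis). Most points sit near 0. Srebf1, Mlxipl, Elovl2 and Elovl3 lie to the right with intervals above 0, and Thrsp, G6pdx and Pgd to the left with intervals below 0.

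None of the 3 regulators was called. Srebf1, the gene of the insulin-responsive factor SREBP-1, stood at 296, 508 and 454 CPM across the wild-type livers (replicates 1, 2 and 3, the order used throughout), against 749.7, 574 and 598 CPM across the heterozygous livers. Every heterozygous library lay above every wild-type library, and wild-type replicate 1 stood lowest. The means of 419 ± 110.2 and 641 ± 95.2 CPM (SD, n = 3) gave a 1.53-fold higher level that was not called (log2 fold change 0.61 ± 0.20 SE, edgeR adjusted p = 0.224). Mlxipl, the gene of ChREBP, stood at 558, 499 and 570.3 CPM across the wild-type livers, against 784, 564 and 762.5 CPM across the heterozygous livers. Heterozygous replicate 2 lay inside the wild-type range, so the groups overlapped, and the difference was not called (log2 fold change 0.38 ± 0.15, edgeR adjusted p = 0.313).

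Thrsp, which encodes the thyroid hormone-responsive Spot 14 protein, is a classical target of both factors and is known to promote lipogenesis. Its mean was lower in heterozygous livers, at 309, 359 and 230.2 CPM across the wild-type livers, against 103, 134 and 179 CPM across the heterozygous livers. No library of one group reached the other. Thrsp means were 299.5 ± 64.9 and 139 ± 38.1 CPM, 2.16-fold lower (log2 fold change -1.11 ± 0.23, edgeR adjusted p = 0.0752). The gene was called in DESeq2 (adjusted p = 0.000269) and in edgeR without heterozygous replicate 3 (log2 fold change -1.33, adjusted p = 0.0493). Without both wild-type replicate 1 and heterozygous replicate 2 its edgeR adjusted p was 0.390.

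Set against each other per kilobase of exon, Srebf1 stood at 0.284, 0.420 and 0.585 times the level of Thrsp in wild-type replicates 1, 2 and 3. In the heterozygous replicates this ratio was 2.16, 1.27 and 0.991. The ratio is a description, because the pair was singled out for its opposite moves in these same libraries.

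**Figure D2:**
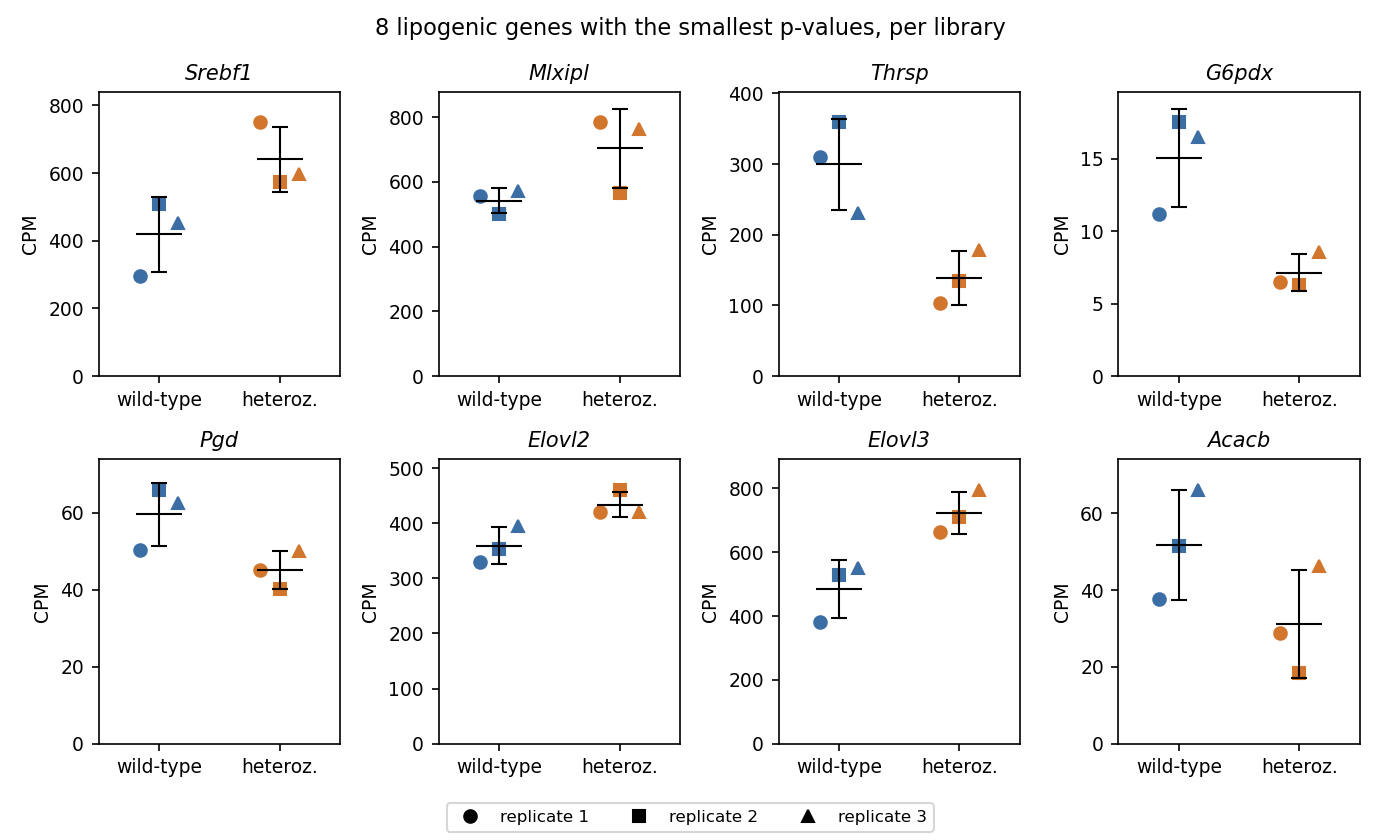
CPM of 8 lipogenic genes in each library (points, shaped by replicate number), with the mean and SD of 3 libraries (black bars), for wild-type (blue) and heterozygous (orange) livers; each axis starts at 0. The groups do not overlap for Srebf1, Elovl2 and Elovl3, higher in heterozygous livers, or for Thrsp, G6pdx and Pgd, lower there, and they do overlap for Mlxipl and Acacb.

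Genes of fatty acid synthesis itself, known targets of SREBP-1c and ChREBP, had overlapping groups. Fasn, fatty acid synthase, stood at 408, 607 and 577 CPM across the wild-type livers, against 627, 415 and 521 CPM across the heterozygous livers. Both groups spanned a similar range, and the 0.982-fold ratio had a 95% interval of 0.724 to 1.33-fold. Acaca, the cytosolic acetyl-CoA carboxylase that feeds Fasn, was at 81.8, 69.8 and 83.8 CPM against 71.6, 87.2 and 76.0 CPM, with an interval of 0.824 to 1.21-fold. Its sister Acacb, whose malonyl-CoA restrains fatty acid entry into mitochondria, was more variable, at 37.6, 51.5 and 66.1 CPM in the wild-type group, against 28.8, 18.5 and 46.2 CPM in the heterozygous group. The groups overlapped for Acacb, and the log2 fold change of -0.73 ± 0.37 was not called (edgeR adjusted p = 0.495). It moved to -1.13 without heterozygous replicate 3 and to -0.46 without heterozygous replicate 2, and was not called in either fit.

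Genes that bring sugar into the pathway had means close together. Khk, ketohexokinase, the first step of fructose breakdown, was the steadiest of the 29 genes between libraries of one group. Its levels were 407, 382 and 427 CPM in the wild-type group, against 393, 395 and 400.0 CPM in the heterozygous group, with an interval of 0.828 to 1.15-fold. Pklr, liver pyruvate kinase and a ChREBP target, had means of 212 ± 26.9 and 217 ± 14.6 CPM. In the annotation used here 23.4% of Pklr exon sequence overlaps Hcn3 on the other strand, and the strand setting of the counter is not known.

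The groups overlapped for all 3 genes of acetyl-CoA supply. Slc25a1, the mitochondrial citrate carrier, had means of 226 ± 22.9 and 221 ± 22.1 CPM, and Acly, ATP-citrate lyase, 228 ± 24.3 and 238 ± 52.1 CPM. Acss2, which makes acetyl-CoA from acetate, stood at 62.0, 108 and 95.9 CPM in the wild-type group, against 75.2, 61.4 and 97.9 CPM in the heterozygous group. The edgeR adjusted p-values of these 3 genes were 0.841 or more. The 95% interval lay within 1.5-fold either way for 14 of the 29 genes: Khk, Pklr, Slc25a1, Acly, Acaca, Fasn, Fads1, Fads2, Elovl2, Elovl6, Agpat2, Lpin2, Dgat1 and Dgat2.

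Of 3 genes of NADPH supply, both in the pentose phosphate pathway were lower without overlap, beside 11.3% of all genes tested. G6pdx encodes glucose-6-phosphate dehydrogenase, the entry of the pentose phosphate pathway, and had the smallest edgeR p of the 29 genes. It stood at 11.2, 17.5 and 16.5 CPM across the wild-type livers, against 6.52, 6.30 and 8.60 CPM across the heterozygous livers, from 104 to 322 reads per library. All wild-type libraries were above all heterozygous ones. The means of 15.1 ± 3.38 and 7.14 ± 1.27 CPM were 2.11-fold apart (log2 fold change -1.08 ± 0.21, edgeR adjusted p = 0.0561). G6pdx was called in edgeR once the filter on low counts was dropped (adjusted p = 0.0267), and by DESeq2 as well (adjusted p = 0.00104). Over all alternatives its adjusted p ran from 0.00104 to 0.249.

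Pgd, 6-phosphogluconate dehydrogenase and the next NADPH-forming step, stood at 50.3, 65.9 and 62.6 CPM in the wild-type group, against 45.1, 40.2 and 49.95 CPM in the heterozygous group. The groups did not overlap, with wild-type replicate 1 and heterozygous replicate 3 close together, and the log2 fold change of -0.40 ± 0.14 was not called (edgeR adjusted p = 0.224). Me1, malic enzyme, which makes NADPH outside that pathway, ranged from 95.8 to 205 CPM in wild-type and from 98.5 to 198 CPM in heterozygous livers. Other genes of the pentose phosphate pathway, Pgls, Tkt, Taldo1 and Rpia, and the NADPH-forming Idh1 had log2 fold changes between -0.06 and 0.12, and 0 of the 5 were called.

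The pentose phosphate pathway is active in macrophages too, and their markers were lower in the same libraries. All 8 listed macrophage markers were below the wild-type range in every heterozygous library, beside 11.3% of all genes tested. The markers were Adgre1, Cd68, Lyz2, Clec4f, Vsig4, Csf1r, Cd5l and Marco, with a median log2 fold change of -1.53. Their summed level was 557 to 1021 CPM in wild-type and 250.1 to 279 CPM in heterozygous livers. Clec4f stood at 48.6, 38.5 and 5.42 CPM in the wild-type group, against 4.31, 4.97 and 3.90 CPM in the heterozygous group. For that gene wild-type replicate 3 thus lay close to the heterozygous libraries. Marco was at 9.82, 31.3 and 5.53 CPM against 1.28, 2.85 and 1.78 CPM. Cd68 and Lyz2 were called (edgeR adjusted p = 0.0445 and 0.0336), beside 0.559% of all genes called lower. In whole liver, fewer cells of a type and less RNA per cell cannot be told apart, and the part of macrophages in the G6pdx and Pgd values was not tested.

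Among the desaturases, Scd1, the stearoyl-CoA desaturase that makes oleate, was the most abundant of the 29 genes per kilobase. It stood at 8871, 13074 and 15655 CPM in the wild-type group, against 12466, 7653 and 12903 CPM in the heterozygous group. The groups overlapped (log2 fold change -0.19 ± 0.26, edgeR adjusted p = 0.850), and the lowest library of each group was wild-type replicate 1 and heterozygous replicate 2. Scd2, the isoform more typical of cells other than mature hepatocytes, was at 11.3, 17.9 and 12.9 CPM against 12.3, 12.3 and 9.46 CPM. Per kilobase, Scd1 exceeded Scd2 703 to 1539 times across libraries, and Scd2 is uncertain because these genes are close copies and reads could be shared. Fads1 and Fads2, the delta-5 and delta-6 desaturases of polyunsaturated fatty acids, had means of 196 ± 18.5 and 393 ± 112.8 CPM in wild-type and 202 ± 46.4 and 396 ± 46.3 CPM in heterozygous livers.

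Of 4 elongases, Elovl3 and Elovl2 had groups that did not overlap and Elovl5 and Elovl6 had groups that did. Over all genes tested, 7.05% were higher and 11.3% lower without overlap. Elovl3, which elongates saturated and monounsaturated very long chains, stood at 381, 527 and 549 CPM in the wild-type group, against 664.5, 711 and 795 CPM in the heterozygous group. Every heterozygous library was above every wild-type one. Its means of 486 ± 91.3 and 724 ± 66.4 CPM were 1.49-fold apart (log2 fold change 0.57 ± 0.16, edgeR adjusted p = 0.139), and DESeq2 called it (adjusted p = 0.0215). Elovl2, which extends polyunsaturated chains towards docosahexaenoate, stood at 329, 354 and 395 CPM against 421, 460.3 and 419.7 CPM. These groups did not overlap either, at a log2 fold change of 0.27 ± 0.12 (edgeR adjusted p = 0.368).

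Elovl5, which elongates the 18-carbon polyunsaturated products of Fads2, had 378, 446 and 561 CPM in the wild-type group, against 330.2, 301 and 581 CPM in the heterozygous group. Elovl6, which takes palmitate to stearate and is an SREBP-1 target, had 63.1, 43.5 and 57.8 CPM against 42.3, 69.2 and 49.7 CPM. For Elovl5, heterozygous replicates 1 and 2 lay below all wild-type libraries and replicate 3 above them, and without that replicate the log2 fold change moved from -0.19 to -0.55 and was not called (edgeR adjusted p = 0.216). For Elovl6 the libraries of the groups were interleaved. Per kilobase Elovl3 exceeded Elovl6 by 18.8 to 37.7 times in wild-type and 31.9 to 49.7 times in heterozygous livers.

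Elovl3 is known to be expressed more in male than in female mouse liver. All 6 listed male-biased genes (Cyp4a12a, Mup20, Cyp7b1, C6, Hsd3b5 and Slco1a1) had positive log2 fold changes, beside 51% of all genes tested. Their median was 0.23, 0 were called, and the groups overlapped for 5 of the 6. Cyp4a12a, Cyp7b1 and C6 had log2 fold changes of only 0.012, 0.025 and 0.097. Hsd3b5, a male-specific steroid dehydrogenase, stood at 78.7, 96.4 and 75.4 CPM in the wild-type group, against 241, 210.2 and 126 CPM in the heterozygous group (log2 fold change 1.20 ± 0.24, edgeR adjusted p = 0.0688). Cyp4a12a, a male marker, was at 178 CPM or more in every library, and the female-biased Sult2a1 and Cyp3a41a were at 0.061 CPM or less. The summed level of the 6 female-biased genes was 1.16 to 4.16 CPM in wild-type and 5.53 to 11.9 CPM in heterozygous livers. The 2 tested, Cyp2b9 and Acot3, also had positive log2 fold changes (3.23 and 1.53), and 0 were called. The part of sex-biased regulation in the Elovl3 values was not tested.

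The groups overlapped for all 7 listed genes of triglyceride assembly. Gpam, the mitochondrial acyltransferase that starts glycerolipid synthesis, had means of 139.9 ± 37.3 and 162.0 ± 14.9 CPM, and Agpat2, which adds the second acyl chain, 279.99 ± 21.2 and 319 ± 48.9 CPM. Dgat1 and Dgat2, which add the last chain, had means of 28.8 ± 4.03 and 417 ± 45.4 CPM in wild-type and 27.2 ± 1.49 and 448 ± 23.5 CPM in heterozygous livers. Per kilobase Dgat2 exceeded Dgat1 by 9.83 to 15.2 times across libraries. The edgeR adjusted p-values of the 7 genes were 0.660 or more.

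The widest spread of all was in Lpin1 and Pnpla3. Lpin1, a phosphatidate phosphatase that also responds to fasting and to the clock, stood at 521, 405 and 274 CPM in the wild-type group, against 65.9, 444 and 211 CPM in the heterozygous group. Heterozygous replicate 1 stood alone at the bottom, 7.91-fold under the highest library. The log2 fold change moved from -0.74 to -0.28 without that library and to -1.53 without heterozygous replicate 2, and was not called in any of these fits. Lpin2, a relative with the same activity, had means of 302 ± 66.7 and 319 ± 77.2 CPM. Pnpla3, a lipid droplet gene known for its strong induction by feeding through SREBP-1c, was at 0.793, 2.45 and 5.53 CPM in the wild-type group, against 2.74, 0.848 and 4.47 CPM in the heterozygous group, from 13 to 101 reads per library.

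Clock genes also differed between libraries. Of 12 clock genes in the table, 0 were called, and log2 fold changes ran from -3.06 to 1.31. Only 1 of the 12 (8.33%) had groups that did not overlap, beside 18.4% of all genes tested. The 4 with the smallest p in these same libraries are given first. Ciart, a clock repressor, stood at 9.15, 17.2 and 1.86 CPM in the wild-type group, against 0.291, 1.64 and 1.43 CPM in the heterozygous group. Cry1, a core clock repressor with another phase, stood at 7.93, 7.67 and 12.5 CPM against 17.8, 20.1 and 11.1 CPM, and Npas2, a partner of the clock activator, 2.01, 2.01 and 7.44 CPM against 11.9, 10.5 and 6.25 CPM. Per3 was at 3.29, 9.19 and 3.78 CPM against 2.62, 1.21 and 3.44 CPM. Wild-type replicates 1 and 2 thus stood opposite heterozygous replicates 1 and 2 in Ciart, Cry1 and Npas2, with replicate 3 of both groups between them in Cry1 and Npas2. The same replicates were not opposite in Per1 (64.35 and 46.5 CPM against 40.65 and 55.0 CPM) or Per2 (17.3 and 14.7 CPM against 10.7 and 21.1 CPM). Thrsp, Elovl3, Lpin1 and Srebf1 are known to cycle over the day, and the part of sampling time in their values was not tested.

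**Figure D3:**
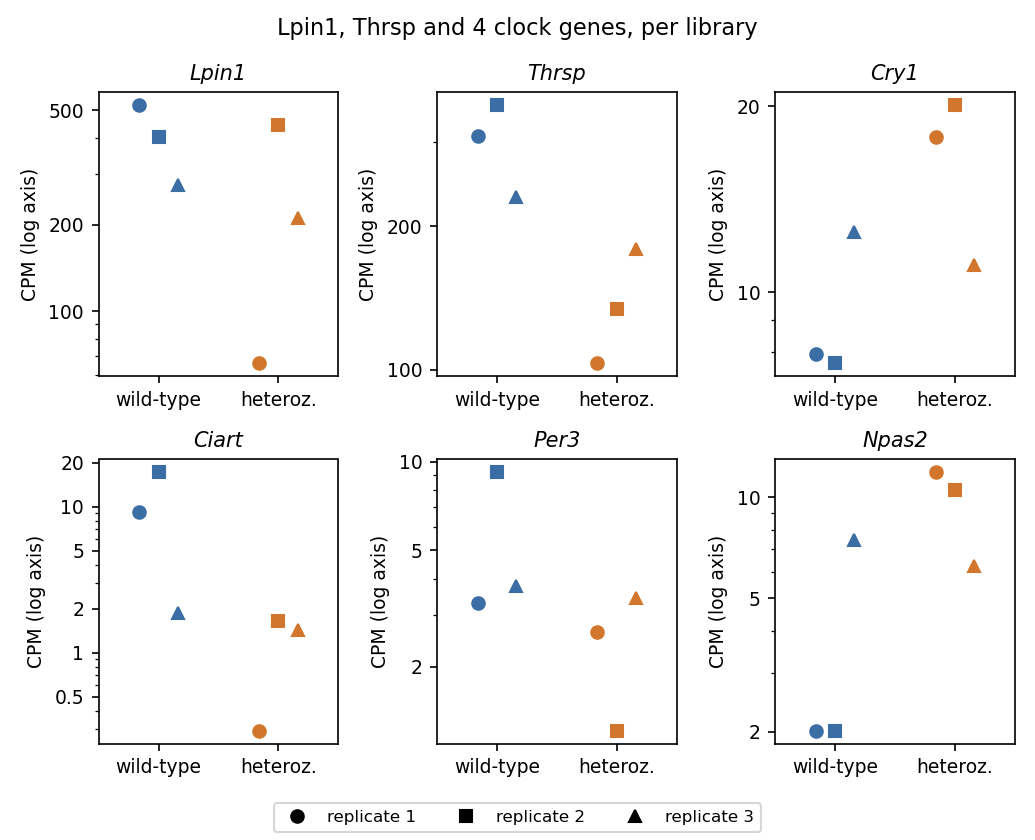
CPM on a log axis of Lpin1, Thrsp and the clock genes Cry1, Ciart, Per3 and Npas2 in each library (points, shaped by replicate number), wild-type in blue and heterozygous in orange. Lpin1 is lowest in heterozygous replicate 1 at 65.9 CPM, and wild-type replicates 1 and 2 lie far from heterozygous replicates 1 and 2 in Cry1 and Npas2.

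Much of the variation of the programme lay within the groups. The SD of log2 CPM within groups had a median of 0.2845 over the 29 genes and 0.199 over all genes tested. Wild-type replicate 1 was the lowest wild-type library for 20 of the 29 genes, and heterozygous replicate 2 the lowest heterozygous library for 15. For 9 genes these 2 libraries were the lowest of all 6: Fasn, Acss2, Scd1, Me1, Pnpla3, Fads2, Agpat2, Pklr and Slc25a1. Acly, Elovl6 and Lpin1 ran the other way, with heterozygous replicate 2 the highest heterozygous and wild-type replicate 1 the highest wild-type library.

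The same 2 libraries had the highest Cebpb levels, 506 CPM in wild-type replicate 1 and 498 CPM in heterozygous replicate 2. They also led in Igfbp1, a liver gene repressed by insulin, with 870.5 and 524 CPM against 70.0 to 226 CPM in the other 4 libraries, a gene picked after its values were seen. Of 8 genes listed for fasting, 0 were called between the groups. Ppargc1a, a coactivator induced in fasting, stood at 28.95 CPM in heterozygous replicate 2 and at 5.31 to 7.97 CPM in the other 5 libraries. Feeding state was not labelled, and its part was not tested. Without both libraries the log2 fold changes were 0.50 for Srebf1, -1.05 for Thrsp, -1.16 for G6pdx and 0.45 for Elovl3, and 0 of the 29 genes were called in edgeR.

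**Figure D4:**
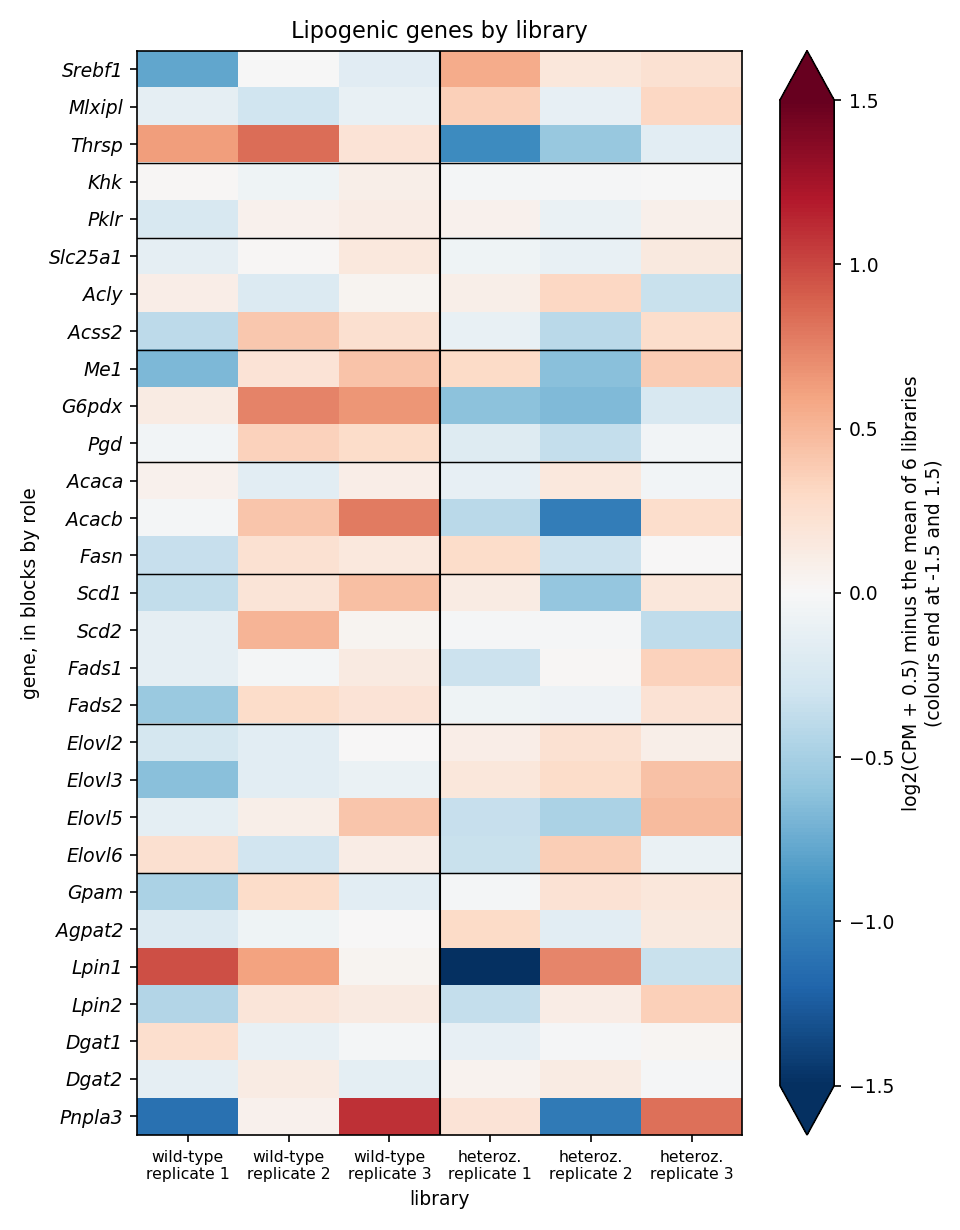
Deviation of log2(CPM + 0.5) from the mean of the 6 libraries for each of the 29 genes (rows, in blocks by role) in each library (columns, wild-type left and heterozygous right of the line), red above and blue below the mean. Wild-type replicate 1 and heterozygous replicate 2 share blue cells for Scd1, Me1, Fasn, Acss2 and Pnpla3, while Thrsp and G6pdx change colour at the line between the groups.

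The wider pathway, 45 further genes of which 43 were tested, gave 0 calls, with 26 positive and 17 negative log2 fold changes and a median of 0.03. An unadjusted p under 0.05 was reached by 3 of them (6.98%), beside 13.2% of all genes. Among them were the acyl-CoA synthetases Acsl1 (log2 fold change 0.41 ± 0.17) and Acsl3 (0.42 ± 0.17), which ready fatty acids for use. The groups did not overlap for Acsl1, at 652, 940.1 and 942 CPM in the wild-type group, against 1290, 1064 and 1024 CPM in the heterozygous group. In the further list for glycerolipid assembly, 3 of the 8 genes tested (37.5%) were lower without overlap, beside 11.3% of all genes, and 0 were called. All 3 encode acyltransferases, but so do most genes of that list, and 4 of the 8 tested had positive log2 fold changes. Gpat4 was at 270, 269 and 261 CPM against 219, 244 and 223 CPM, at a log2 fold change of -0.22 ± 0.10 (edgeR adjusted p = 0.424). Agpat1 was at 18.4, 20.5 and 18.2 CPM against 15.8, 16.4 and 17.4 CPM (-0.20 ± 0.12), and Agpat4 at 1.95, 2.34 and 2.24 CPM against 1.28, 1.51 and 1.78 CPM (-0.51 ± 0.27).

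Of 12 further regulators, 0 were called and 0 had an unadjusted p under 0.05. Scap, the escort of SREBP-1, Insig1 and Insig2, which hold the pair in the endoplasmic reticulum, and the proteases Mbtps1 and Mbtps2 control the processing of SREBP-1 and had log2 fold changes between -0.16 and 0.16. Insig2 alone of the 12 regulators (8.33%) had groups that did not overlap, beside 18.4% of all genes tested. It stood at 330.4, 287 and 288 CPM against 339.1, 334.6 and 335.3 CPM (log2 fold change 0.16 ± 0.11, edgeR adjusted p = 0.631). Insig1, itself an SREBP target, stood at 76.1, 151 and 140.04 CPM in the wild-type group, against 115, 91.0 and 169 CPM in the heterozygous group. Nr1h3, the liver X receptor gene that drives Srebf1, had a log2 fold change of -0.03 ± 0.12, and Mlx, the obligate partner of ChREBP, 0.05 ± 0.14. Mid1ip1, the relative of Thrsp, stood at 49.2, 58.2 and 42.8 CPM against 67.8, 39.8 and 40.2 CPM and did not separate as Thrsp did, though the difference between the pair was not tested. Insig1, Nr1h3, Mlx, Mid1ip1 and, above, Ppargc1a were picked for mention after their values were seen.

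Adipocytes and other liver cells can carry lipogenic RNA of their own. Of the adipocyte genes, the defining markers Adipoq, Plin1 and Retn were at 0.666 CPM or less in every library. Car3, an abundant adipocyte gene that hepatocytes also express, stood at 4484 to 5154 CPM in wild-type and 5983 to 7863 CPM in heterozygous livers and made up nearly all of that list's sum of 4567 to 5189 and 5995 to 7917 CPM. Cidec, of adipocytes and of fat-laden hepatocytes, ranged from 34.8 to 82.9 and from 9.99 to 63.0 CPM. Stellate cell markers summed to 119 to 144 CPM in wild-type and 64.6 to 108 CPM in heterozygous livers, and endothelial markers to 116 to 153 and 151 to 206.5 CPM. Neither list moved as 1. The stellate log2 fold changes were -1.03 for Col1a1, -0.59 for Pdgfrb, 0.14 for Lrat and -0.0066 for Des. The endothelial ones were -0.31 for Pecam1, 0.27 for Stab2, 0.72 for Kdr and 0.55 for Clec4g, and 0 genes of either list were called. Cholangiocyte markers summed to 18.0 to 27.9 and 12.35 to 29.01 CPM. The part of these cell types in the lipogenic values was not tested.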

How the data were processed

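The authors deposited 1 table of whole-number counts, not normalized, with gene symbols as rows and samples as columns; the unit was read from the values. The tools named per the submitters' processing notes are HTSeq 0.9.1, HISAT2 2.2.1.0 and Trimmomatic 0.36, with build GRCm39, and per the labels' protocols libraries were stranded and poly(A)-selected. For the annotation and the strand setting, nothing is given in the sources used here. Groups come from the sample titles.

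The whole table was tested with edgeR 4.0.16 under R 4.3.3: filterByExpr, TMM scaling, then glmQLFTest on a robust fit without covariates. SEs are the absolute log2 fold change over the square root of F. Alternatives were RLE and upper-quartile scaling, no filter, a filter of 1 CPM or more in 3 samples, limma-voom (limma 3.58.1), DESeq2 1.42.0, a non-robust fit, the replicate number as a block and each library left out. Leaving out wild-type replicate 1 with heterozygous replicate 2, and Scd1 left out of library sizes, were added after seeing the data. The members and lists were chosen with earlier results of these data known. All 29 genes are named, and from other lists those called plus up to 4 with the smallest p, with further names said to be picked later or given to describe a whole list. Some genes of the other lists are not reported here. Values per kilobase use exon unions of GENCODE M21. On simulated counts for this comparison (12591 genes), the test called 57 of 98 genes changed by 1 on the log2 scale. It called 90 of 98 changed by 2 and 11 of 12395 unchanged genes. The changed genes were drawn at random over all genes tested, and the simulated counts held no shift shared by many genes of 1 library. These rates therefore need not hold for the 29 genes or for libraries that differ in such a way.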

Additional observations from a re-analysis of the deposited data

How the results depend on the processing

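The number of lipogenic genes called was 0 in edgeR and limma-voom with all libraries, 1 with no filter on low counts (G6pdx) and 3 in DESeq2, and ran from 0 to 1 when 1 library was left out (Thrsp, without heterozygous replicate 3). The number with an unadjusted p under 0.05 ran from 4 to 7 with 1 library left out, lowest without heterozygous replicate 1. Calls over all genes were 37 with upper-quartile scaling, 211 with no filter, 48 with at least 1 CPM in 3 samples, 528 in DESeq2, 0 in limma-voom (where 13.3% of genes reached an unadjusted p under 0.05) and 20 with a non-robust fit, against 74. They were 4 without both wild-type replicate 1 and heterozygous replicate 2, and from 0 (without heterozygous replicate 1 or 2, with 8.54% and 12.4% of genes at an unadjusted p under 0.05) to 122 (without heterozygous replicate 3) with 1 library left out. With the replicate block, 0 genes were called (11.2% had an unadjusted p under 0.05), and 0 of the 29. Replicate numbers are not stated to pair the samples, so the main fit used no block. Deviations of same-numbered libraries correlated at -0.231, -0.326 and 0.204. The cause of these changes was not tested.

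Over the 16 alternatives 15 of the 29 genes kept their sign. The log2 fold change ran from 0.43 to 0.78 for Srebf1, 0.45 to 0.67 for Elovl3, 0.18 to 0.34 for Elovl2, -1.33 to -0.92 for Thrsp, -1.23 to -0.95 for G6pdx and -0.49 to -0.32 for Pgd, whose groups do not overlap, so that such signs are nearly given and show no stability. Among the others of the 15 it ran from 0.30 to 0.54 for Mlxipl, -1.13 to -0.46 for Acacb, -1.53 to -0.28 for Lpin1, -0.55 to -0.018 for Elovl5, -0.37 to -0.010 for Acss2, -0.49 to -0.086 for Scd2, 0.013 to 0.44 for Gpam, 0.10 to 0.30 for Agpat2 and 0.038 to 0.20 for Dgat2. Beyond the 7 genes that did so with all libraries, 5 reached an unadjusted p under 0.05 with 1 library left out: Acacb and Elovl5 without heterozygous replicate 3, Agpat2 and Lpin1 without heterozygous replicate 2, and Gpam without wild-type replicate 2, and none of these 5 was called. The other 14 changed sign. Acaca was at 0.0036 with RLE scaling, 0.016 with no filter and 0.0089 in DESeq2. Without both wild-type replicate 1 and heterozygous replicate 2, log2 fold changes were -0.018 for Acly, -0.15 for Fads2, -0.10 for Lpin2, 0.043 for Dgat1 and -0.0019 for Pklr. With 1 library left out they ran from -0.17 to 0.12 for Fasn, -0.088 to 0.069 for Acaca, -0.088 to 0.22 for Acly, -0.36 to 0.019 for Scd1, -0.25 to 0.13 for Elovl6, -0.23 to 0.27 for Me1 and -0.71 to 0.72 for Pnpla3. They ran from -0.14 to 0.21 for Fads1, -0.19 to 0.16 for Fads2, -0.091 to 0.27 for Lpin2, -0.15 to 0.056 for Dgat1, -0.050 to 0.098 for Pklr, -0.070 to 0.0068 for Khk and -0.11 to 0.048 for Slc25a1. At this number of libraries the 95% interval reached past 1.5-fold both up and down for Me1, Lpin1 and Pnpla3.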
